A study of Mus musculus with 3 samples.

Results

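Imprinted genes are transcribed from only 1 of the parental copies, according to a methylation mark set in the egg or the sperm. Many of them govern fetal growth: genes transcribed from the paternal copy, such as Igf2, tend to promote it, and genes transcribed from the maternal copy, such as Igf2r and, in most tissues, Grb10, tend to restrain it. The 10 imprinted genes described here are the growth factor and receptor genes Igf2, Igf2r and Dlk1, the adaptor gene Grb10, the zinc finger genes Plagl1 and Peg3, the retrotransposon-derived gene Peg10, and Mest, Sgce and Impact. They were taken by symbol from a table of 17274 named genes, and all 10 had a row there. The data come from B16, a mouse melanoma line, carrying a stably integrated empty vector (Mock). RNA was sequenced in 3 samples, Mock replicates 1, 2 and 3, which form the only group, so no treated or wild-type cells could be compared. Whether they came from separate cultures is not said in the labels, so the spread among these 3 libraries is possibly a technical one. No p-value speaks beyond these libraries. The edgeR and limma p-values pool variance over many genes, so they do not measure a gene's own spread alone. Reads were not assigned to parental copies, so a level is the sum over both.

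The libraries held 9323148 to 9451756 reads, and a single read was worth 0.106 to 0.107 CPM (the usual scaling of reads to library size, with TMM factors). All 10 pigment cell markers were above 1 CPM (summed level 24380 to 25800 CPM per library), among them Tyrp1 and Dct, with Tyr at 6.52 CPM. Of 9 fibroblast markers 4 were above 1 CPM (summed level of the 9, 39.1 to 44.6 CPM). Col1a2 stood at 27.6 CPM and Col1a1 at 8.29 CPM, while Pdgfrb and Postn were not called above by DESeq2. Col3a1, Dcn, Thy1 and Fap had no read. Of 6 leukocyte and 5 endothelial markers 4 each had no read, and neither these lists nor the 4 fetal liver markers summed to more than 0.743 CPM in any library. Their part in the levels below was not tested.

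The 10 genes fell into an abundant and a near-silent set. Plagl1, Igf2r, Sgce, Peg10 and Impact were above 1 CPM, Peg3, Mest and Igf2 were below it, Grb10 was not distinguishable from 1 CPM, and Dlk1 had no read. Of the 9 genes with a read, a test on edgeR's quasi-likelihood fit placed 5 above 1 CPM (adjusted p under 0.05), against 74.4% of all 14400 genes tested. The 3 below compare with 20.2% of all genes tested. The median of the 10 genes was 17.8 CPM and that of all rows 12.6 CPM. The 3 libraries gave the same picture: the 5 abundant genes held 99.9% of the reads of the 10 in each. Low calls rest on few reads, and the number below 1 CPM fell to 1 without replicate 1, because Igf2 then had no read and Mest lost the call, and to 1 without replicate 2.

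**Figure D1:**
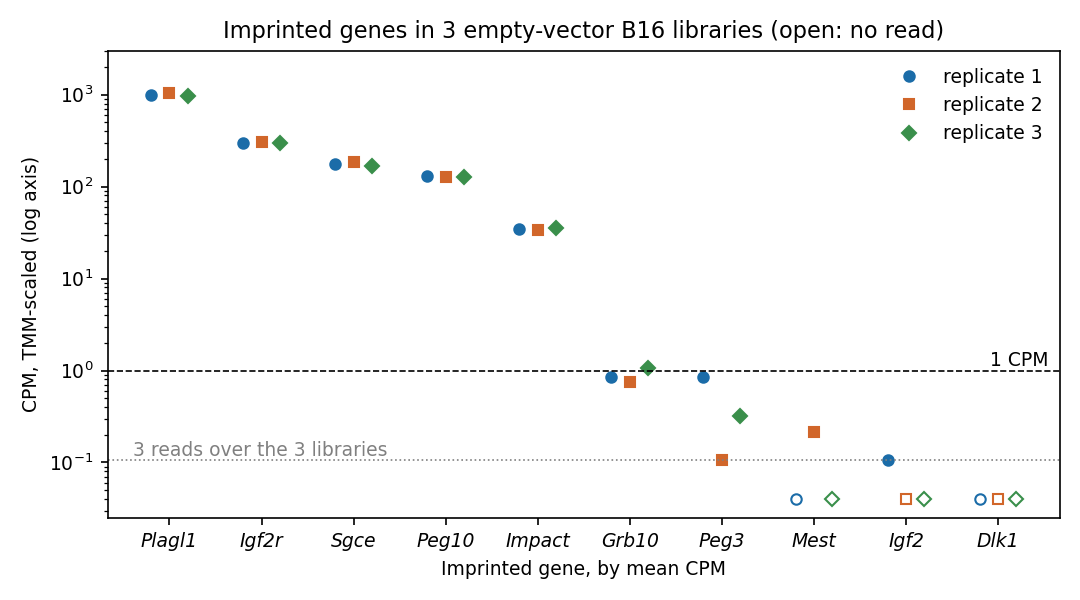
CPM (log axis) of each imprinted gene in Mock replicates 1, 2 and 3, ordered by mean, with open symbols at the foot of the plot for libraries without a read, a dashed line at 1 CPM and a dotted line at the level of 3 reads over the group. The 5 abundant genes lie between 34.1 and 1048.8 CPM in every library, and the other 5 at or below 1.06 CPM.

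The start windows of these genes were examined for CpG and for a motif. The control region that carries an imprint can lie outside a gene's start window, as the one between Igf2 and H19 does. Letters in these windows therefore need not be those of the imprint. RefSeq windows of 300 bases (250 before to 50 after a start, GRCm38.p6) were at hand for 7 of the 10 genes, 13 windows in all, and none was used for Sgce, Peg10 or Impact. The letters TGCCGC, the core that the imprint-protecting zinc finger protein ZFP57 reads when it is methylated, were searched on both strands. They stood in 5 of the 13 windows, belonging to Plagl1, Grb10, Igf2 and Mest, against 11.6% of 32851 windows of all genes. The Mest windows overlap and share their matches. The letters hold a CpG themselves, and the share over all windows was not matched for CpG, so it gives no measure of enrichment. Every match was the reverse complement GCGGCA, printed in capitals below on the gene's strand. The most abundant gene and a near-silent one carried the match alike, so these 2 sites are shown side by side:
Plagl1, chr10:13090730-13090759, plus strand, 90 bases before the start: ctggcgtgttgcGCGGCAaagcccacggca
Mest, chr6:30737971-30738000, plus strand, 67 bases before the start: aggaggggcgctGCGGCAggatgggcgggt
The Mest window that holds this site also has a match at its distal end, 242 bases before the start. The 250 bases before the Mest start and before the start of Igf2r, an abundant gene whose window has no match, are shown because both windows are rich in CpG and hold no exon bases upstream, while Igf2r was abundant and Mest close to silent:
Mest, chr6:30737800-30738049, plus strand: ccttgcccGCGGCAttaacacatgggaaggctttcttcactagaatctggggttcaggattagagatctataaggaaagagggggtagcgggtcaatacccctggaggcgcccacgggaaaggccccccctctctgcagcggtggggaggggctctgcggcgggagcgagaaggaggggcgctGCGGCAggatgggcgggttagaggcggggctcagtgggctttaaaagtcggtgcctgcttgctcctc
Igf2r, chr17:12769707-12769956, minus strand: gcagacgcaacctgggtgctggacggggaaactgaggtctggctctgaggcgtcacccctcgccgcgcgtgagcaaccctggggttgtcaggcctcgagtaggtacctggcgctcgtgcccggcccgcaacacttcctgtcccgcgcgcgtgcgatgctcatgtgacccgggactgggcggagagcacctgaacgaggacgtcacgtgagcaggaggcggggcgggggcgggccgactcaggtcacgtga
The 300-base windows held 34 CpG for Igf2r, 26 for Plagl1, 13 for Peg3 and 9 for Dlk1, against a median of 7 over all windows. Genes with several windows ranged widely: the Grb10 windows held 45 and 9, the 3 Mest windows 17, 17 and 8, and the 4 Igf2 windows 24, 14, 7 and 2. The window richest in CpG thus belonged to Grb10, a gene near 1 CPM, and the only windows at or below the median were 2 of Igf2. A match is a description of letters, and methylation was not measured.

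Plagl1 encodes a zinc finger transcription factor that restrains proliferation and regulates other imprinted genes. It lies on chromosome 10 from 13060504 to 13131694 (plus strand, GENCODE M21, GRCm38, as for all gene positions). It had 9292, 9890 and 9004 reads in replicates 1, 2 and 3, or 993, 1048.8 and 955 CPM. Replicate 2 was highest and replicate 3 lowest. The mean was 999 ± 46.9 CPM (SD, n = 3, as for all CPM values), and per kilobase of annotated exon the gene ranked 332 among the 16837 rows with a length. The SD was 4.7% of the mean. Its share of the 10 genes' reads ran from 60.1% to 61.8%. The paralog genes were far lower per kilobase of annotated exon: Plagl2 stood at 5.04 ± 0.449 and Plag1 at 0.146 ± 0.0259 CPM per kilobase, against 128 ± 6.0 for Plagl1. Plagl2 was above 1 CPM and Plag1, an oncogene of salivary gland tumours, was unresolved (edgeR adjusted p = 0.261).

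Igf2 and Igf2r, the best-known antagonists among imprinted genes, stood at opposite ends. Igf2r (chromosome 17, 12682406 to 12769664, minus strand) encodes the receptor that carries IGF2 to lysosomes and also sorts lysosomal enzymes by their mannose 6-phosphate tags. It had 2795, 2858 and 2828 reads, or 299, 303 and 300 CPM. These 3 values were close together, with a mean of 301 ± 2.21 CPM, an SD of 0.734% of the mean. Igf2 (chromosome 7, 142650766 to 142666816, minus strand), the fetal growth factor, had 1 read, in replicate 1, and the other libraries had none. That is 0.0356 ± 0.0617 CPM, with an exact 95% Poisson interval of 0.000898 to 0.198 CPM for the summed reads, which covers counting error only. Igf2 was below 1 CPM by edgeR (adjusted p = 6.11e-04). In the annotation 3596 bases of its exons are shared with the gene model Gm49394, which had no row. How reads matching both were counted is not known, and its part in the Igf2 level was not tested.

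Of 47 partner genes of the 10 with a read, 38 were above 1 CPM and 6 below, near the 74.4% and 20.2% of all genes tested, so these counts do not set the partners apart. DESeq2 called 35 of them above. In insulin-like growth factor signalling, 10 of 13 genes with a row were above 1 CPM, 1 was below, 1 was unresolved and Irs1 had no read, where 62.0% of all rows were above 1 CPM. The receptor genes Igf1r and Insr stood at 29.1 ± 0.689 and 39.8 ± 0.432 CPM. Per kilobase of exon they were at 1.74 ± 0.041 and 2.90 ± 0.0314 CPM, against 32.3 ± 0.237 for Igf2r. Of the genes for secreted binding proteins, Igfbp3 reached 144 ± 6.70 CPM and Igfbp4 55.0 ± 3.62 CPM, while Igfbp2 had 1 read and was below 1 CPM. The gene for the Igf2 mRNA-binding protein Igf2bp1, known from fetal tissues, reached 54.8 ± 1.88 CPM, Igf2bp3 10.1 ± 0.146 CPM and Igf2bp2 4.15 ± 0.89 CPM. Igfbp5 was called above 1 CPM at 1.56 ± 0.519 CPM, and this call was lost without replicate 2 or 3 (edgeR adjusted p = 0.236 and 0.266) and by DESeq2 (adjusted p = 0.744). Igfbp6, at 1.70 ± 0.22 CPM, also lost its call by DESeq2 (adjusted p = 0.668). The Igf1 gene had no row and was not analysed here. Of the enzyme-sorting partners of Igf2r, 7 of 7 were above 1 CPM, as were 74.4% of all genes tested. They include M6pr, the gene of the smaller mannose 6-phosphate receptor, at 73.7 ± 0.986 CPM per kilobase, the GlcNAc-phosphotransferase gene Gnptab at 11.9 ± 0.0553, and the adaptor genes Gga1, Gga2 and Gga3 at 32.3 ± 0.975, 6.59 ± 0.097 and 8.68 ± 0.372 CPM per kilobase.

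Grb10 and Dlk1 were scarce. Grb10 (chromosome 11, 11930508 to 12038683, minus strand) encodes an adaptor that dampens insulin and IGF1 receptor signals. It had 8, 7 and 10 reads, or 0.855, 0.742 and 1.06 CPM, and its mean of 0.886 ± 0.162 CPM was not distinguishable from 1 CPM (edgeR adjusted p = 0.566). Its interval of 0.574 to 1.31 CPM includes 1. Among its relatives, Grb14 had no read and Grb7 was unresolved at 1.42 ± 0.38 CPM (edgeR adjusted p = 0.0871). The genes of the GRB10-interacting proteins were transcribed, Gigyf1 at 31.1 ± 2.54 and Gigyf2 at 68.2 ± 2.48 CPM. Dlk1 (chromosome 12, 109452823 to 109463336, plus strand), a membrane protein related to Notch ligands and a marker of progenitor cells, had no read in any library. This allows up to 0.106 CPM, the level of 3 reads over the group. Reads of Plagl1 were at least 9395.3-fold more and those of Igf2r at least 2827-fold more. Its paralog gene Dlk2 was below 1 CPM with 4 reads, a call lost without replicate 3 (edgeR adjusted p = 0.0571). The Notch receptor gene Notch2 reached 92.3 ± 4.10 CPM, Notch1 6.35 ± 0.905 CPM and the ligand gene Jag1 9.68 ± 1.08 CPM, and Notch3 had no read.

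Sgce and Peg10 sit head to head on chromosome 6 and share an imprinted start region. Sgce (4674350 to 4747207, minus strand) encodes epsilon-sarcoglycan, and Peg10 (4747306 to 4760517, plus strand) a Gag-Pol-like protein needed for the placenta. Their annotated starts lie 99 bases apart. Sgce had 1633, 1727 and 1588 reads, or 175, 183 and 169 CPM. Peg10 had 1209, 1207 and 1205 reads, or 129, 128 and 128 CPM. Sgce was highest in replicate 2, and its reads exceeded those of Peg10 in 3 of 3 libraries. The SD was 4.19% of the mean for Sgce and 0.589% for Peg10, a difference that was not tested. Which of the pair was higher depended on the length used. Per kilobase of merged exon Peg10 was higher, at 19.3 ± 0.113 against 16.5 ± 0.693 CPM per kilobase, a log2 ratio of 0.22 ± 0.06 (SD, n = 3, limma adjusted p = 1.52e-04). Per kilobase of the longest transcript Sgce was higher, at 39.7 against 19.3 CPM per kilobase, and the log2 ratio turned to -1.04. The merged exons of Sgce measure 10612 bases and its longest transcript 4416, whereas both lengths are 6667 bases for Peg10.

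Partners of these genes lay on both sides of 1 CPM, as did the genes of the whole table. In the sarcoglycan and dystroglycan complex, 3 other genes were above 1 CPM. Dag1, which encodes dystroglycan, reached 610 ± 8.03 CPM, the sarcospan gene Sspn 75.3 ± 2.53 CPM and Sgcb 28.4 ± 2.02 CPM. Sgca and Sgcd, whose proteins belong to the muscle complex, had 7 and 3 reads and were below 1 CPM (edgeR adjusted p = 0.0022 and 0.00148). Of 7 other genes derived from retrotransposon Gag sequences, 4 were above 1 CPM (57.1%, against 62.0% of all rows). They were Rtl8a at 59.1 ± 5.76, Rtl8b at 62.2 ± 4.76, Rtl8c at 26.2 ± 1.33 and Pnma1 at 1.99 ± 0.275 CPM. Pnma1 lost its call by DESeq2 (adjusted p = 0.527). The Rtl8 genes are near-identical copies with fractional counts, so the split between them is uncertain. Rtl5 had 1 read, and Rtl6 and Arc had none.

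Impact (chromosome 18, 12955852 to 12992950, plus strand) encodes an inhibitor of GCN1, the activator of the amino acid sensor kinase GCN2. It had 320, 322 and 337 reads, or 34.2, 34.1 and 35.8 CPM, a mean of 34.7 ± 0.915 CPM with replicate 3 slightly highest. All 5 genes of the GCN2 pathway with a row were above 1 CPM, as were 62.0% of all rows. The kinase gene Eif2ak4 stood at 45.9 ± 3.39 CPM, Gcn1l1 (the older symbol of Gcn1) at 137 ± 6.44 CPM, Eif2s1 at 174 ± 12.5 CPM, Abce1 at 348 ± 2.50 CPM and the stress transcription factor gene Atf4 at 978 ± 15.7 CPM. Per kilobase of merged exon, Impact stood at 6.77 ± 0.178, Eif2ak4 at 6.16 ± 0.454 and Gcn1l1 at 7.71 ± 0.361 CPM. Per kilobase of the longest transcript these were 9.22, 8.67 and 16.1 CPM, so the distance to Gcn1l1 depended on the length used, and the differences were not tested.

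Peg3 and Mest, both abundant in embryonic and mesenchymal tissues, were close to silent. Peg3 (chromosome 7, 6703892 to 6730431, minus strand), a zinc finger gene tied to growth and apoptosis, had 8, 1 and 3 reads, or 0.855, 0.106 and 0.318 CPM. Replicate 1 held most of its reads. Its mean of 0.427 ± 0.386 CPM was called below 1 CPM (edgeR adjusted p = 0.0415), but not without replicate 2 or 3 (adjusted p = 0.191 and 0.236). Over the alternatives the adjusted p ran from 0.00107 to 0.691. The genes of proteins that PEG3 is reported to act with were all above 1 CPM, as were 74.4% of all genes tested: Bax at 96.2 ± 3.54, Traf2 at 32.7 ± 0.994 and Siah1a at 22.3 ± 0.944 CPM. Mest (chromosome 6, 30723547 to 30748465, plus strand), which encodes an enzyme of the alpha/beta hydrolase fold, had a deposited value of 2.3 reads in replicate 2 and 0 in the other 2 libraries. It was the only one of the 10 genes with a fractional count. Its level of 0.0707 ± 0.122 CPM was below 1 CPM (edgeR adjusted p = 0.0016), a call lost without replicate 1 (adjusted p = 0.0509). The convergent gene Copg2, on the other strand, shares 912 bases of exon with Mest and stood at 121 ± 5.27 CPM, also with a fractional count in replicate 2 (1195.7). Of 4016 different 31-base words in Mest transcripts, 882 occur in Copg2 transcripts too. Whether the Mest reads are Copg2 reads was not tested.

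Ordered by CPM per kilobase of merged exon, the 7 genes with at least 10 reads ran from Plagl1 (128) through Igf2r (32.3), Peg10 (19.3), Sgce (16.5), Impact (6.77) and Grb10 (0.0975) to Peg3 (0.0320). Each was compared with the next lower one in the same libraries, 6 pairs in all, by limma on log2 ratios adjusted over 11674 genes. Plagl1 exceeded Igf2r by a log2 ratio of 1.98 ± 0.06 (adjusted p = 5.21e-11), and Igf2r exceeded Peg10 by 0.75 ± 0.02 (limma adjusted p = 7.26e-08). Sgce exceeded Impact by 1.29 ± 0.09 (limma adjusted p = 1.90e-11), or 2.44-fold, which became 4.30-fold by the longest transcript and 5.05-fold by reads without length. The widest step was from Impact to Grb10, at 6.05 ± 0.21 (limma adjusted p = 8.64e-221), or 66.2-fold, and 37.4-fold by reads without length. Such calls are common in these tight libraries. In either direction 98.4% of genes differed from Igf2r, 97.2% from Peg10, 96.4% from Sgce, 95.5% from Impact, 96.1% from Grb10 and 98.2% from Peg3. The genes called higher were 13.9% for Igf2r, 23.3% for Peg10, 26.5% for Sgce, 50.1% for Impact, 95.8% for Grb10 and 98.2% for Peg3. Grb10 and Peg3 were barely separated, at 1.85 ± 1.19 (limma adjusted p = 0.0449), and not without replicate 2 or 3 (adjusted p = 0.132 and 0.345). Per kilobase of the longest transcript Sgce, at 39.7 CPM, also passed Igf2r, at 33.8 CPM, a difference that was not tested.

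**Figure D2:**
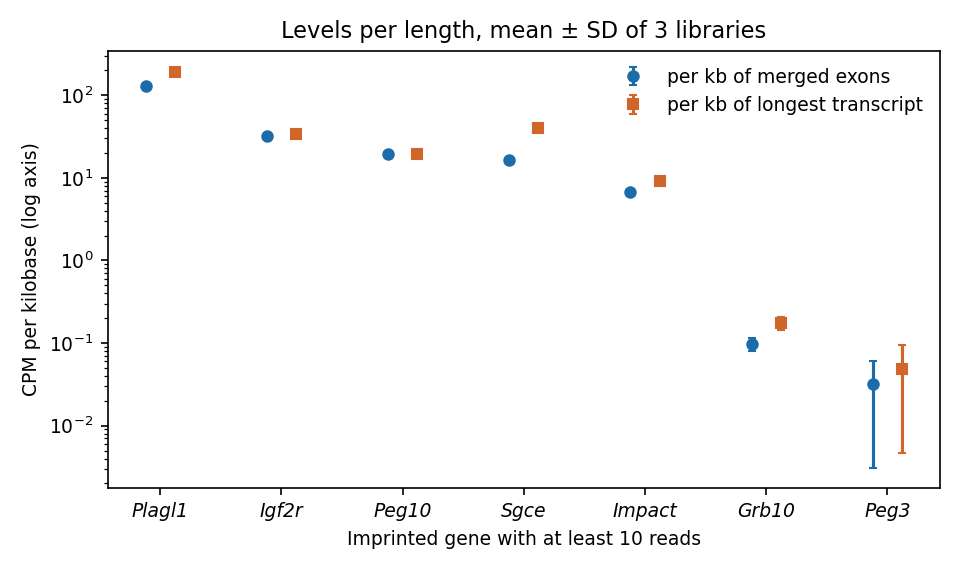
CPM per kilobase (log axis, mean ± SD of 3 libraries) of the 7 imprinted genes with at least 10 reads, divided by the length of all merged exons (circles) or of the longest transcript (squares), the lower bar of Peg3 ending just above 0. The order is the same by both lengths except for Sgce, which moves from 16.5 to 39.7 and so past Peg10 and Igf2r.

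The genes whose level per kilobase was nearest to that of Plagl1 over the 3 libraries were Rpl18, Eif4b and Fam104a, at Euclidean distances of 0.062, 0.0649 and 0.079 in log2 (CPM + 1) per kilobase. Those nearest to Peg3 were Slco2a1, Casc1 and Rasgef1b, at 0.149, 0.242 and 0.249. The added 1 is divided by length as well and exceeds the Peg3 mean of 0.427 CPM, so nearness to Peg3 largely reflects exon length. With 3 libraries of 1 group the likeness speaks of nothing beyond level and length.

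Imprinted genes lie in clusters, so the genes starting within 500 kb of each were listed. Their counts above 1 CPM are to be read against 62.0% of all rows. Around Plagl1, 9 genes had a row, and 8 of them were above 1 CPM, reaching up to 117 CPM. Phactr2, the imprinted neighbour of Plagl1, stood at 46.7 ± 2.62 CPM. Around Igf2r, 6 of 17 genes were above 1 CPM, reaching up to 279 CPM, and Slc22a3, a transporter gene imprinted with Igf2r in the placenta, had no read. Around Sgce and Peg10, the cluster genes Casd1, which encodes a sialic acid O-acetyltransferase, and Ppp1r9a reached 135 ± 2.33 and 69.0 ± 3.19 CPM. Farther out in that cluster Pon2 reached 122 ± 2.70 CPM, Pon3 had 1 read, and Calcr and Asb4 had none. Around Impact, 3 of 4 genes were above 1 CPM.

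The near-silent genes had mixed neighbourhoods. Around Igf2, 7 of 14 genes were above 1 CPM, reaching up to 2693.2 CPM. The imprinted genes Cd81, Tspan32, Tssc4 and Ascl2 stood at 138 ± 3.64, 64.4 ± 3.55, 63.6 ± 3.94 and 3.65 ± 0.72 CPM, Kcnq1 had 8 reads, and Th had none. Around Peg3, 3 of 11 genes were above 1 CPM, and the imprinted neighbours Usp29, head to head with Peg3, and Zim1 had no read. The median there was 0.32 CPM. Around Mest, 6 of 11 genes were above 1 CPM, Copg2 among them. Around Grb10, 1 of 5 genes was above 1 CPM, Fignl1 at 43.8 ± 0.861 CPM. The imprinted neighbours Ddc and Cobl had 2 and 11 reads, and the call of Cobl below 1 CPM (edgeR adjusted p = 0.0494) was lost with each replicate left out. The Dlk1 region had 2 genes with a row, and Rtl1, its imprinted retrotransposon-derived neighbour, had no read. H19, Meg3 and Airn, the noncoding RNAs of the Igf2, Dlk1 and Igf2r regions, had no row and were not analysed here.

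Over a wider list of 65 imprinted genes other than these 10, 51 had a row. By edgeR, 25 of the 34 with a read were above 1 CPM and 7 below, against 74.4% and 20.2% of all genes tested. No read was found for 17 of the 51, where 16.6% of all rows had none. Counted over rows, 49.0% of the list was above 1 CPM, against 62.0% of all rows. The number below fell to 3 without replicate 2 and to 4 without replicate 3. In CPM, which takes no account of length, the most read gene was Gnas, whose protein is the stimulatory G protein subunit that links the melanocortin receptor to cAMP, at 1919.5 ± 46.4 CPM. It was followed by Nap1l4 (139 ± 5.43), Cd81 (138 ± 3.64), Casd1 (135 ± 2.33), Pon2 (122 ± 2.70) and Copg2 (121 ± 5.27 CPM). The genes of the Prader-Willi region Snrpn, Snurf, Ndn, Magel2 and Peg12, transcribed from the paternal copy, had no read, Mkrn3 was unresolved at 1.06 ± 0.382 CPM (edgeR adjusted p = 0.778), and Ube3a, in the same region, stood at 59.4 ± 4.0 CPM. Cdkn1c, a growth-restraining inhibitor of cyclin-dependent kinases, stood at 21.8 ± 1.09 CPM, whereas its neighbour Phlda2, which restrains placental growth, had 1 read. The Prader-Willi genes, Cdkn1c and Phlda2 were picked out with their values in view.

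Genes that keep or erase imprints were mostly transcribed. Of 19 such genes with a row, 17 were above 1 CPM by edgeR (89.5%, against 62.0% of all rows). None was below by edgeR. DESeq2 called 0 genes of the whole table below 1 CPM, so it could not have called any of these. Ctcfl was unresolved at 1.06 ± 0.103 CPM and Dnmt3l, which acts with the DNA methyltransferases in germ cells, had no read. Each of the 18 with a read had a mean above 1 CPM. The most read were Trim28, the corepressor recruited by zinc finger proteins, at 284 ± 11.6 CPM, the maintenance methyltransferase gene Dnmt1 at 235 ± 1.86 CPM, its recruiter Uhrf1 at 198 ± 12.2 CPM, the oxidase gene Tet3 at 172 ± 11.2 CPM, Dnmt3a at 171 ± 10.6 CPM and Ehmt2 at 134 ± 3.58 CPM. The zinc finger genes that read imprints, Zfp57 and Zfp445, had 178, 126 and 146 and 403, 380 and 375 reads. Both were above 1 CPM (edgeR adjusted p = 2.42e-09 and 1.20e-12), Zfp445 at 41.1 ± 1.77 CPM, and Zfp57 was highest in replicate 1. The insulator gene Ctcf, whose protein binds the unmethylated control region between Igf2 and H19, stood at 124 ± 1.69 CPM. Zfp57, Zfp445 and Ctcf were picked out with their values in view.

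**Figure D3:**
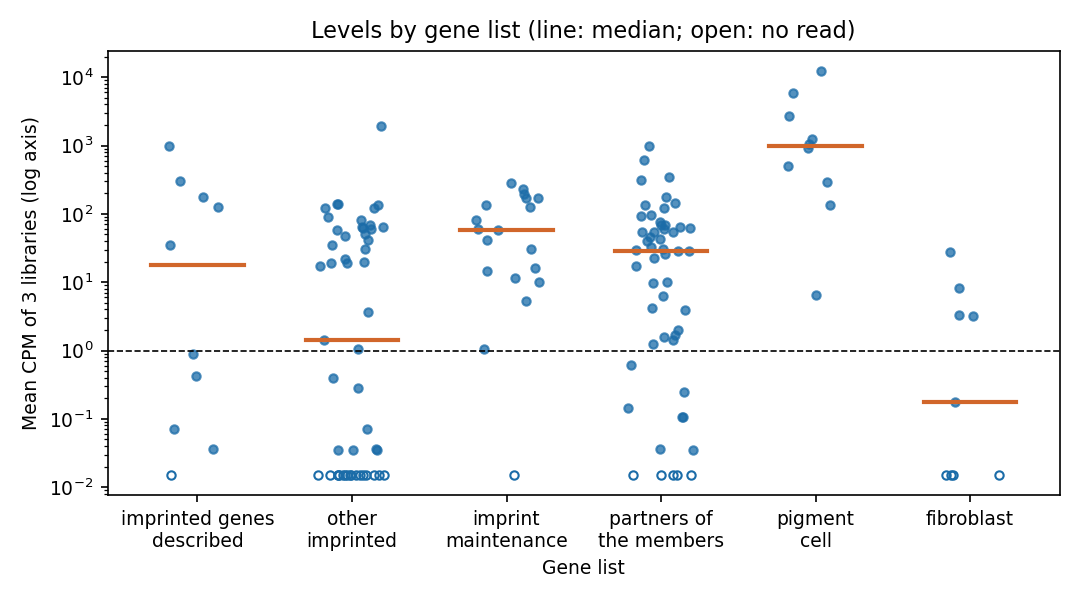
Mean CPM of 3 libraries (log axis) of each gene with a row, by list, with open points for genes without a read, orange lines for medians and a dashed line at 1 CPM. Imprinted genes lie on both sides of 1 CPM, with medians of 17.8 CPM for the 10 described and 1.42 CPM for the others, while the maintenance genes have a median of 58.3 CPM and only 1 gene without a read.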

How the data were processed

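The authors' deposited table gives estimated counts per gene symbol for 3 libraries, and the submitters' processing notes name GRCm38.p6. Not given in the sources used here are aligner, counter, annotation, filters and strand use, so reads of overlapping genes could fall to either. Of 17285 rows, 11 named by a bare number (0.0505% of counts) were left out, and counts were rounded (13.1% of rows were fractional by over 0.005). Totals were 9323148, 9451756 and 9434317, with TMM factors of 1.0034, 0.9977 and 0.9989. At 1 CPM, 28.2 reads over the group are expected. The libraries were not the same library: chi-square per degree of freedom between pairs was 1.62 to 1.98.

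Levels were tested against 1 CPM with edgeR 4.0.16 (R 4.3.3, intercept-only quasi-likelihood fit, two-sided, Benjamini-Hochberg over 14400 genes). The F statistic was computed from the fitted deviances, not by edgeR's own test function. Where the quasi-dispersion was below 1, the larger of that p-value and a Poisson likelihood-ratio p-value was kept. Ratios used limma 3.58.1 with a mean-variance trend on counts plus 0.5 per kilobase of merged GENCODE M21 exons, over genes with at least 10 counts. DESeq2 1.42.0 and an exact Poisson test were alternatives, with other scalings, filters, reference levels, lengths, pseudocounts and each replicate left out. On simulated counts of 14400 genes, 50 of 50 genes at 2 CPM were called above and 38 of 50 at 0.5 CPM below. On a simulated ratio of 0, 1 of 50 genes was called. The form of the trend was settled on simulated data after the real fits had been seen. The simulated reference gene carried no noise of its own, and only well-read genes were drawn. The 1 of 50 is thus no false-call rate for the real ratios, least of all for Grb10 over Peg3. No gene was simulated at 1 CPM, so the level simulation gives no false-call rate either. Intervals are exact Poisson (95%, scipy 1.17.1), and plots used matplotlib 3.10.9.

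The members and lists were chosen with earlier results of these data known. Named genes are the 10 members, the 6 highest imprinted and maintenance genes, imprinted genes next to a member and the partner lists; the 3 genes nearest in level to the highest and the lowest member were taken by Euclidean distance, and all others were picked out with their values in view. One partner gene is not reported here by name.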

Additional observations from a re-analysis of the deposited data

How the results depend on the processing

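The 5 abundant genes were above the reference level under every alternative run, and at 0.5 CPM Grb10 joined them (log2 level 0.83, edgeR adjusted p = 0.0302, against -0.17 at 1 CPM). Calls near 1 CPM were fragile in both directions: by DESeq2 the partner genes above fell from 38 to 35, losing Igfbp5, Igfbp6 and Pnma1. DESeq2's Wald test called 0 imprinted members, 0 other imprinted genes and 0 partner genes below 1 CPM, and 0 genes of the whole table, also at an unadjusted p under 0.05. Restricted to genes with at least 10 counts, which removes most scarce genes, the numbers below were 1 member, 1 other imprinted gene and 0 partner genes. Against 2 CPM, 1 imprint maintenance gene was below. With each replicate left out, the number of members below ran from 1 to 2 (3 with all) and that of other imprinted genes from 3 to 5 (7 with all). The ratio of Peg10 to Sgce changed sign with length, from 0.22 to -1.04 by the longest transcript and -0.45 by reads alone. The ratio of Grb10 to Peg3 lost its call by reads alone (1.30, limma adjusted p = 0.176), with a pseudocount of 0.1 (2.02, adjusted p = 0.0697) and over all genes with at least 1 count (1.85, adjusted p = 0.0559). With a replicate left out it ran from 1.34 to 1.71, and without replicate 1 too few reads were left. No paired analysis was possible because the samples form a single group.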
